A study of Mus musculus with 21 samples.

Results

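This report describes 36 genes whose messenger RNA was close to undetected in wild-type mouse embryonic stem cells and was counted in cells that had lost PDS5A and were depleted of PDS5B. A gene was included if it had less than 0.2 CPM (a gene's count scaled to its library total) in each of 3 wild-type control libraries and at least 0.7 CPM in each of 3 Pds5a-KO siPds5b libraries. Symbols starting with Hox, Pcdh, Usp17l or Zscan4 were left out by the rule, but 0 such genes met both thresholds. The 36 genes were found among 23412 counted symbols, of which 7575 were below 0.2 CPM in each wild-type control library (0.475% of these were among the 36) and 13338 reached 0.7 CPM in each Pds5a-KO siPds5b library. The same thresholds in the other direction gave 6 genes.

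All 21 poly-A RNA-seq libraries came from v6.5 cells, a male mouse embryonic stem cell line, transfected with 50 nM siRNA for 48 hours. There were 7 conditions of 3 libraries: WT siGLO, WT siPds5b, Pds5b-KO siGLO, Pds5a-KO siGLO, Pds5a-KO siStag1, Pds5a-KO siStag2 and Pds5a-KO siPds5b, where siGLO is the non-targeting transfection control and KO a knockout made by genome editing. Each knockout was 1 clone, so an effect of the gene and one of the clone cannot be told apart. All 4 Pds5a-KO conditions used the same clone, including the one that chose the genes. The study describes transcript counts of its WT and knockout cells as coming from biological replicates, within 1 clone per knockout, so p-values measure the spread between such replicates and not between clones.

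Cohesin is a ring-shaped protein complex that holds sister chromatids together and forms chromatin loops in interphase. PDS5A and PDS5B are related accessory subunits that regulate the loading, release and acetylation of the ring, and STAG1 and STAG2 are another pair of alternative accessory subunits. Embryonic stem cells keep many genes of later lineages at low levels, among them neuronal, epithelial and germ line genes.

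To show what kind of sequence lies at the start of such genes, 6 windows are printed in RefSeq sequence of build GRCm38.p6. They hold the 250 bases before an annotated start of 6 of the 36. They were chosen to span high and low CpG content and are written 5′ to 3′ on the strand of the gene, with every CG dinucleotide in capitals. Galnt14 encodes an enzyme that starts mucin-type O-glycosylation, and its window lies at chr17:73710452-73710701 on the minus strand. Atoh1 and Neurog2 encode proneural transcription factors, with windows at chr6:64728875-64729124 and chr3:127632886-127633135 on the plus strand. The Galnt14 and Neurog2 windows lie inside the annotated span of the gene, so they precede an internal start. Zfy1 encodes a zinc finger factor of male germ cells, at chrY:797410-797659 on the minus strand. Krt79 encodes a keratin, at chr15:101940325-101940574 on the minus strand, and Isx an intestinal homeobox factor, at chr8:74872924-74873173 on the plus strand.
Galnt14: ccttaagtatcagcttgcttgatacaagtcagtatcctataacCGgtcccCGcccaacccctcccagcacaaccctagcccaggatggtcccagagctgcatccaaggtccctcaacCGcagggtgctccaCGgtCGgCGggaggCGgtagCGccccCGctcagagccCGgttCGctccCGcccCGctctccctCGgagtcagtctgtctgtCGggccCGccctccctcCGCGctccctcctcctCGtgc
Atoh1: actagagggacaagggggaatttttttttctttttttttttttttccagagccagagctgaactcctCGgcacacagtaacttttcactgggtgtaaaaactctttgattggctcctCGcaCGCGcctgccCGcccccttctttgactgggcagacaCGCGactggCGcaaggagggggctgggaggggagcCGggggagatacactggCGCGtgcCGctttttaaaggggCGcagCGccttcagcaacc
Neurog2: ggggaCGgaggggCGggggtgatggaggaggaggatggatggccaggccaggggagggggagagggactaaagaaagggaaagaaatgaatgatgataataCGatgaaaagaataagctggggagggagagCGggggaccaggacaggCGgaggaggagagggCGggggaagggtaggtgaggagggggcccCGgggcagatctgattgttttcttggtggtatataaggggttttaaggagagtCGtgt
Zfy1: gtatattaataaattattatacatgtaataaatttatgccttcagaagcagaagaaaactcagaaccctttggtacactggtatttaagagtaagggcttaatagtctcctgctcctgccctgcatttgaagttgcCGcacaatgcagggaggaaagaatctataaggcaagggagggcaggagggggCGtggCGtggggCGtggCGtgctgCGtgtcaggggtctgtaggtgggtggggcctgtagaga
Krt79: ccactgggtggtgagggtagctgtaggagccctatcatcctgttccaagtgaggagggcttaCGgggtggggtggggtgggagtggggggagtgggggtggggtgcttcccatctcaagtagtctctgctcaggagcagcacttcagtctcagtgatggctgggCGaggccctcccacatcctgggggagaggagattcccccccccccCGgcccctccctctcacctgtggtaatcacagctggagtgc
Isx: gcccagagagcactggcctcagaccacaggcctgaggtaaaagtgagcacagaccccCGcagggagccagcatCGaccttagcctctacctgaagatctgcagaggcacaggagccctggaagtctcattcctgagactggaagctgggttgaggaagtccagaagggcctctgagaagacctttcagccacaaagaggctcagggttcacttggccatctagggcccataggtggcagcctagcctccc
These windows held 19 CpG dinucleotides for Galnt14, 14 for Atoh1, 8 for Neurog2, 6 for Zfy1, 3 for Krt79 and 2 for Isx. The windows were picked for this range, and the values of all genes with a window are given further on.

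The libraries held 17311090 to 23989198 counts, so 1 count was worth 0.0417 to 0.0578 CPM. The lower threshold corresponded to 3.46 to 4.80 counts and the upper one to 12.1 to 16.8 counts. Pds5b transcript fell to 34.8% of WT siGLO in WT siPds5b, to 12.5% in Pds5b-KO siGLO and to 41.6% in Pds5a-KO siPds5b. Stag1 fell to 23.7% of Pds5a-KO siGLO in the siStag1 libraries and Stag2 to 27.2% in the siStag2 libraries. Pds5a transcript was still at 84.0% of WT siGLO in Pds5a-KO siGLO, so its count does not check that label. The 13 stem cell identity genes on the list, such as Pou5f1, were all at 0.7 CPM or more in every library, with a summed level of 8382 to 8755 CPM in WT siGLO and 6025 to 6609 in Pds5a-KO siPds5b. Of the genes of other cells, the 13 fibroblast genes summed to 94.9 to 130 CPM in WT siGLO and 56.1 to 124 in Pds5a-KO siPds5b. The 20 counted trophoblast genes summed to 48.9 to 54.7 CPM in WT siGLO, 131 to 224 in Pds5a-KO siGLO and 103 to 183 in Pds5a-KO siPds5b, with the placental markers Tpbpa and Cts8 at 0 in all libraries. The 27 counted primitive and visceral endoderm genes summed to 229 to 272 CPM in WT siGLO and 313 to 471 in Pds5a-KO siPds5b. The 22 counted blood and immune cell genes summed to 53.0 to 63.2 CPM in WT siGLO and 36.2 to 36.9 in Pds5a-KO siPds5b. Their part in the levels below was not tested. In bulk RNA, many cells with little of a transcript and few cells with much of it cannot be told apart. In Pds5a-KO siStag2 replicate 3, the ribosomal RNA Rn45s took 2.68% of counts, above 0.477 to 1.44% elsewhere, and leaving it out changed no call below.

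The values of WT siGLO and Pds5a-KO siPds5b chose the genes and are given as a description. In WT siGLO a gene had between 0 and 10 counts over the 3 libraries, with a median of 5 and at most 4 in any library. A count was present in every WT siGLO library for 16 of the 36. The pseudogene Gm17821 had none, which allows up to 0.0463 CPM if 3 counts are taken as the limit of a count of 0. Nearest inside the lower threshold were 1700022P22Rik, Gm9112 and Krt79, each with a highest WT siGLO value of 0.172 CPM, and nearest outside were Gabra4, Xlr3b and Tnfrsf23, each at 0.208. Nearest inside the upper threshold were Pax1 and Gm17821, with a lowest Pds5a-KO siPds5b value of 0.726 CPM, and Pdha2 with 0.747. Nearest outside were C130021I20Rik and Skor1 at 0.693 and Gpr50 at 0.681.

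The summed level of the 36 genes differed widely between the conditions. The rule favours a low sum in WT siGLO and a high one in Pds5a-KO siPds5b. The sum was 2.87 ± 0.441 CPM (SD, n = 3) in WT siGLO, 5.84 ± 0.204 in WT siPds5b, 12.4 ± 0.371 in Pds5b-KO siGLO and 18.9 ± 2.14 in Pds5a-KO siGLO. It was 20.5 ± 1.30 in Pds5a-KO siStag1, 27.5 ± 1.35 in Pds5a-KO siStag2 and 47.9 ± 0.624 in Pds5a-KO siPds5b. Pds5a-KO siGLO (17.6 to 21.4 CPM) and Pds5a-KO siStag1 (19.09 to 21.7) overlapped, while the libraries of the other neighbours in this order did not. The median gene had a mean of 0.0784 CPM in WT siGLO, 0.309 in Pds5b-KO siGLO, 0.393 in Pds5a-KO siGLO and 1.17 in Pds5a-KO siPds5b. Even in Pds5a-KO siPds5b, most of the genes were thus near 1 CPM.

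**Figure D1:**
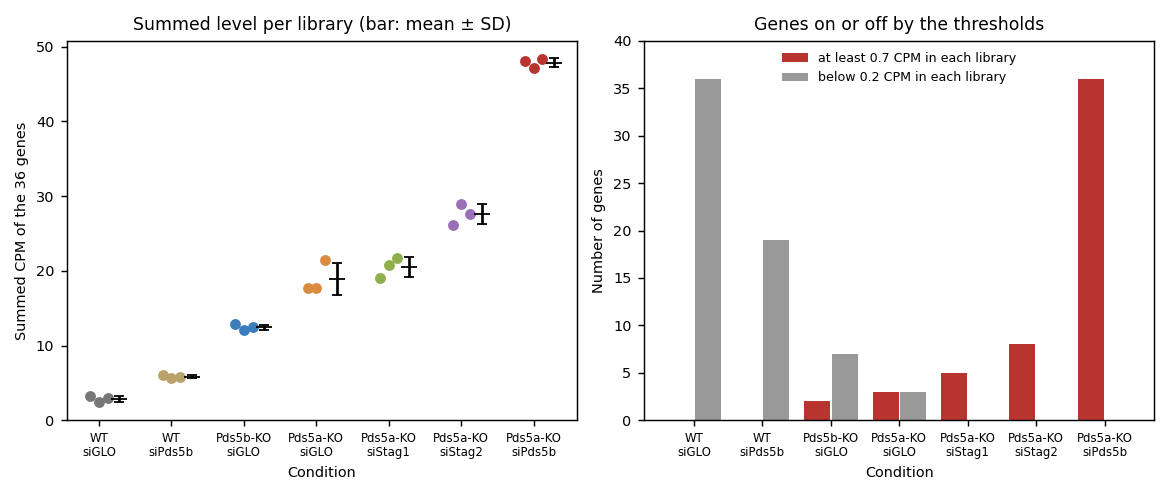
Summed CPM of the 36 genes in each of the 21 libraries by condition (points; bars are means with SD, n = 3), with the number of the 36 genes at 0.7 CPM or more and below 0.2 CPM in each library of a condition. The sum was 2.87 CPM in WT siGLO and 47.9 in Pds5a-KO siPds5b, with the other 5 conditions between them. The rule favours these extremes.

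Few of the genes were on in every library of a condition outside the rule. At 0.7 CPM or more in each library stood 0 genes in WT siPds5b, 2 in Pds5b-KO siGLO (Galnt14, Pkib), 3 in Pds5a-KO siGLO (Galnt14, Pkib, Stmn4), 5 in Pds5a-KO siStag1 (those 3 with Nol4 and Rassf9) and 8 in Pds5a-KO siStag2 (Cyp21a1, Galnt14, Kcna6, Pdgfd, Rassf9, Sqrdl, Stmn4, Zfy1). Over all 7575 genes that were low in WT siGLO, the shares were 0%, 0.0528%, 0.0396%, 0.066% and 0.145% in the same order. Below 0.2 CPM in each library were 19 of the 36 in WT siPds5b, 7 in Pds5b-KO siGLO, 3 in Pds5a-KO siGLO (Gm17821, Neurog2, Pdha2) and 0 in both STAG depletions, beside 93.1%, 91.2%, 93.6%, 93.5% and 90.7% of the 7575. In between, meeting neither criterion, were 27 genes in Pds5b-KO siGLO and 30 in Pds5a-KO siGLO. The same rule with Pds5a-KO siStag2 in place of Pds5a-KO siPds5b gave 11 genes, of which Kcnh8, Pde1c and Serpinb8 were not among the 36.

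**Figure D2:**
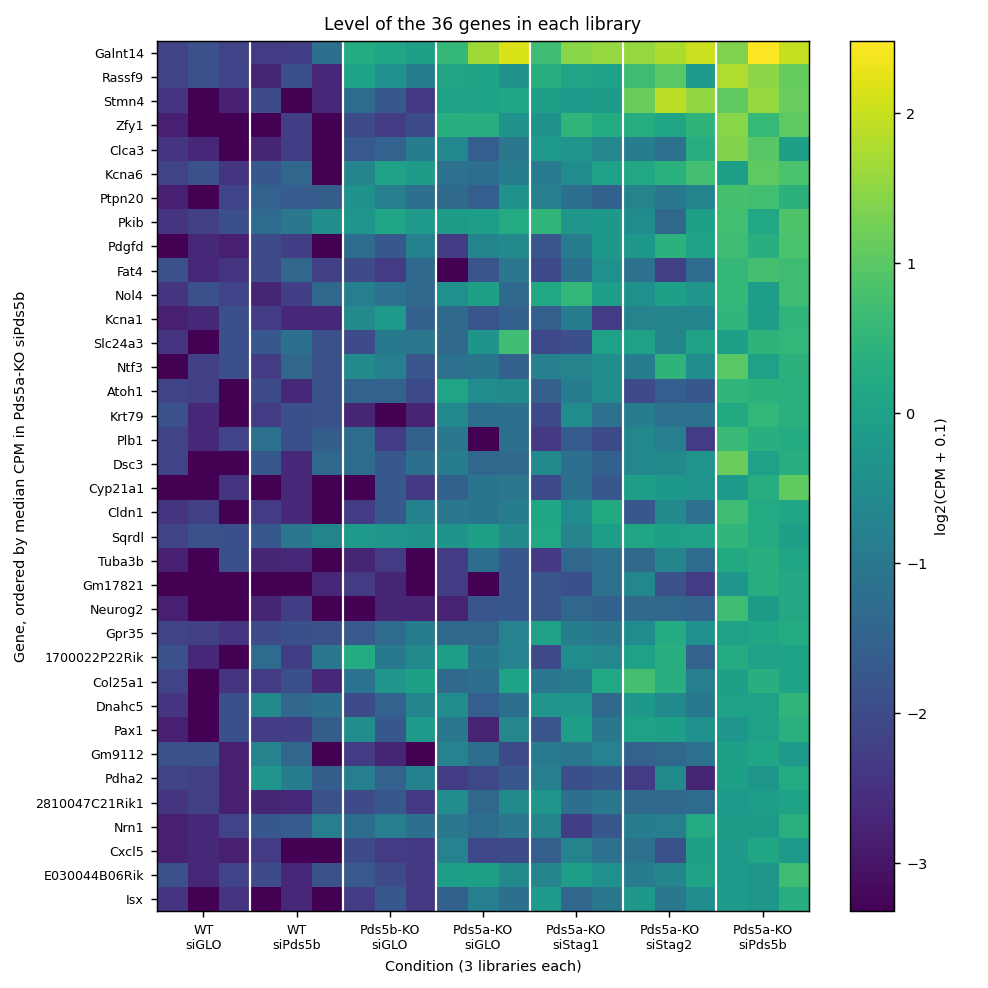
Level of the 36 genes (rows) in the 21 libraries (columns, grouped by condition), as log2 of CPM with a small pseudocount. The 3 WT siGLO columns are the darkest and the 3 Pds5a-KO siPds5b columns the brightest, as the rule sets, and the single knockouts lie between them.

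For 34 of the 36, the highest condition mean was in Pds5a-KO siPds5b, an order that the rule favours by its upper threshold. The exceptions were Stmn4 and Col25a1, which were highest in Pds5a-KO siStag2. In 16 genes the 3 Pds5a-KO siPds5b libraries lay above the 18 others, beside 4.62% of 14436 genes at 0.7 CPM or more in at least 3 libraries, and the rule used these libraries. In WT siPds5b the mean was above that of WT siGLO for 29 of 36, and 9 did not overlap (Ptpn20, Pkib, Slc24a3, Sqrdl, Dnahc5, Pdha2, Nrn1, Plb1 and Gpr35). Over the 7575 genes low in WT siGLO, 1.82% were higher without overlap, as were 4.75% of 13461 genes at a WT mean of 0.7 CPM or more. The rule required low WT siGLO values, so nothing is read from this count.

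By what they are known to encode, 10 of the genes were placed with neurons, 9 with epithelia, 5 with the male germ line and 4 with growth signals and patterning. Another 4 encode other enzymes and regulators and 4 have no named product. The grouping was made by hand once the 36 genes were known, and the growth and patterning group also holds the enzyme gene Galnt14.

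The neural genes summed to 0.805 ± 0.140 CPM in WT siGLO, 1.46 ± 0.153 in WT siPds5b and 3.87 ± 0.635 in Pds5b-KO siGLO. Their sum was 5.09 ± 0.681 CPM in Pds5a-KO siGLO and 5.28 ± 0.844 in Pds5a-KO siStag1. It was 9.16 ± 0.9499 CPM in Pds5a-KO siStag2 and 12.998 ± 0.427 in Pds5a-KO siPds5b (SD, n = 3 each). Stmn4 encodes a stathmin that binds tubulin in neurons. Its level was 0.0859, 0 and 0.0417 CPM in WT siGLO, 0.153, 0 and 0.0574 in WT siPds5b, and 0.313, 0.205 and 0.0978 in Pds5b-KO siGLO. It was 0.900, 0.936 and 0.984 CPM in Pds5a-KO siGLO, 0.866, 0.780 and 0.799 in Pds5a-KO siStag1, 2.17, 3.58 and 2.81 in Pds5a-KO siStag2 and 1.95, 2.88 and 2.11 in Pds5a-KO siPds5b. Stmn4 was thus low in WT and Pds5b-KO cells and above 0.7 CPM in every Pds5a-KO library, with the siStag2 and siPds5b libraries overlapping at the top.

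Kcna1 and Kcna6 encode voltage-gated potassium channels of axons. Kcna6 was at 0.204, 0.280 and 0 CPM in WT siPds5b, 0.521, 0.921 and 0.831 in Pds5b-KO siGLO, 0.350, 0.328 and 0.443 in Pds5a-KO siGLO, 1.01, 1.21 and 1.59 in Pds5a-KO siStag2 and 0.863, 1.97 and 1.70 in Pds5a-KO siPds5b. Kcna1 was at 0.102, 0.0561 and 0.0574 CPM in WT siPds5b, 0.573, 0.768 and 0.245 in Pds5b-KO siGLO, 0.2999, 0.187 and 0.246 in Pds5a-KO siGLO and 1.32, 0.853 and 1.29 in Pds5a-KO siPds5b. For Kcna6, all Pds5b-KO siGLO libraries were above all Pds5a-KO siGLO libraries, whereas for Kcna1 they overlapped, and the difference passed the test for neither. The neurotrophin gene Ntf3 reached 0.573, 0.461 and 0.196 CPM in Pds5b-KO siGLO, 0.350, 0.375 and 0.246 in Pds5a-KO siGLO and 1.91, 0.907 and 1.24 in Pds5a-KO siPds5b.

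The proneural factors Atoh1 and Neurog2, whose promoter windows are printed above, differed from each other. Atoh1 was at 0.153, 0.0561 and 0.172 CPM in WT siPds5b, 0.261, 0.256 and 0.147 in Pds5b-KO siGLO, 0.9496, 0.609 and 0.590 in Pds5a-KO siGLO, 0.240, 0.446 and 0.599 in Pds5a-KO siStag1, 0.151, 0.231 and 0.205 in Pds5a-KO siStag2 and 1.32, 1.23 and 1.18 in Pds5a-KO siPds5b. Its siStag2 libraries were below all siGLO libraries of the same clone, a log2 difference of -1.86 ± 0.51 (SE) that did not pass the threshold of 0.01 (edgeR adjusted p = 0.0251). Neurog2 was at most 0.112 CPM in WT siPds5b, 0.0512 in Pds5b-KO siGLO and 0.197 in Pds5a-KO siGLO, and at 1.498, 0.800 and 1.03 CPM in Pds5a-KO siPds5b. It ranged from 0.192 to 0.279 CPM in Pds5a-KO siStag1 and from 0.256 to 0.302 in Pds5a-KO siStag2. Outside Pds5a-KO siPds5b, Neurog2 did not pass 0.302 CPM in any library.

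Col25a1 encodes a membrane collagen of neurons and Nol4 a nucleolar protein of brain and testis. Col25a1 was at 0.102, 0.168 and 0.0574 CPM in WT siPds5b, 0.365, 0.717 and 0.880 in Pds5b-KO siGLO, 1.61, 1.16 and 0.460 in Pds5a-KO siStag2 and 0.863, 1.17 and 0.927 in Pds5a-KO siPds5b. Nol4 was at 0.0509, 0.112 and 0.287 CPM in WT siPds5b, 0.650, 0.889 and 0.295 in Pds5a-KO siGLO and 1.01, 1.34 and 0.848 in Pds5a-KO siStag1. Both varied widely between libraries of a condition. The remaining neural genes, Nrn1 (neuritin) and Slc24a3 (a sodium/calcium-potassium exchanger), spanned 0.111 to 1.52 CPM across the 5 conditions outside the rule.

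The epithelial genes summed to 0.691 ± 0.270 CPM in WT siGLO, 0.997 ± 0.108 in WT siPds5b and 2.36 ± 0.298 in Pds5b-KO siGLO. Their sum was 3.63 ± 0.663 CPM in Pds5a-KO siGLO and 4.90 ± 0.646 in Pds5a-KO siStag1. It was 5.64 ± 0.233 CPM in Pds5a-KO siStag2 and 12.1 ± 2.08 in Pds5a-KO siPds5b. These genes encode, among others, the desmosomal cadherin Dsc3, the tight junction protein Cldn1, the brush border phospholipase Plb1 and the chemokine Cxcl5. Clca3 was placed here as a goblet cell protein, but its symbol was ambiguous, so that placement is uncertain. Rassf9, a Ras-association protein of epidermis, was at 0.0509, 0.168 and 0.0574 CPM in WT siPds5b, 0.938, 0.665 and 0.440 in Pds5b-KO siGLO, 0.9496, 0.936 and 0.689 in Pds5a-KO siGLO, 1.51, 1.91 and 0.767 in Pds5a-KO siStag2 and 3.36, 2.67 and 2.06 in Pds5a-KO siPds5b. It was higher in every library of both knockouts than in every WT library.

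Krt79, a keratin of skin appendages, was at 0.102, 0.168 and 0.172 CPM in WT siPds5b, 0.0521, 0 and 0.0489 in Pds5b-KO siGLO, 0.550, 0.328 and 0.344 in Pds5a-KO siGLO and 1.04, 1.33 and 1.18 in Pds5a-KO siPds5b. Isx was at 0, 0.0561 and 0 CPM in WT siPds5b, 0.104, 0.205 and 0.0978 in Pds5b-KO siGLO, 0.250, 0.468 and 0.344 in Pds5a-KO siGLO and 0.772, 0.747 and 1.13 in Pds5a-KO siPds5b. In both genes the Pds5a-KO siGLO libraries lay above all those of WT siPds5b and Pds5b-KO siGLO. Dsc3, the only gene of the 36 on the epidermis list, was at 0.204, 0.0561 and 0.287 CPM in WT siPds5b, 0.450, 0.281 and 0.295 in Pds5a-KO siGLO and 2.13, 0.907 and 1.13 in Pds5a-KO siPds5b, and the former groups overlapped.

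**Figure D3:**
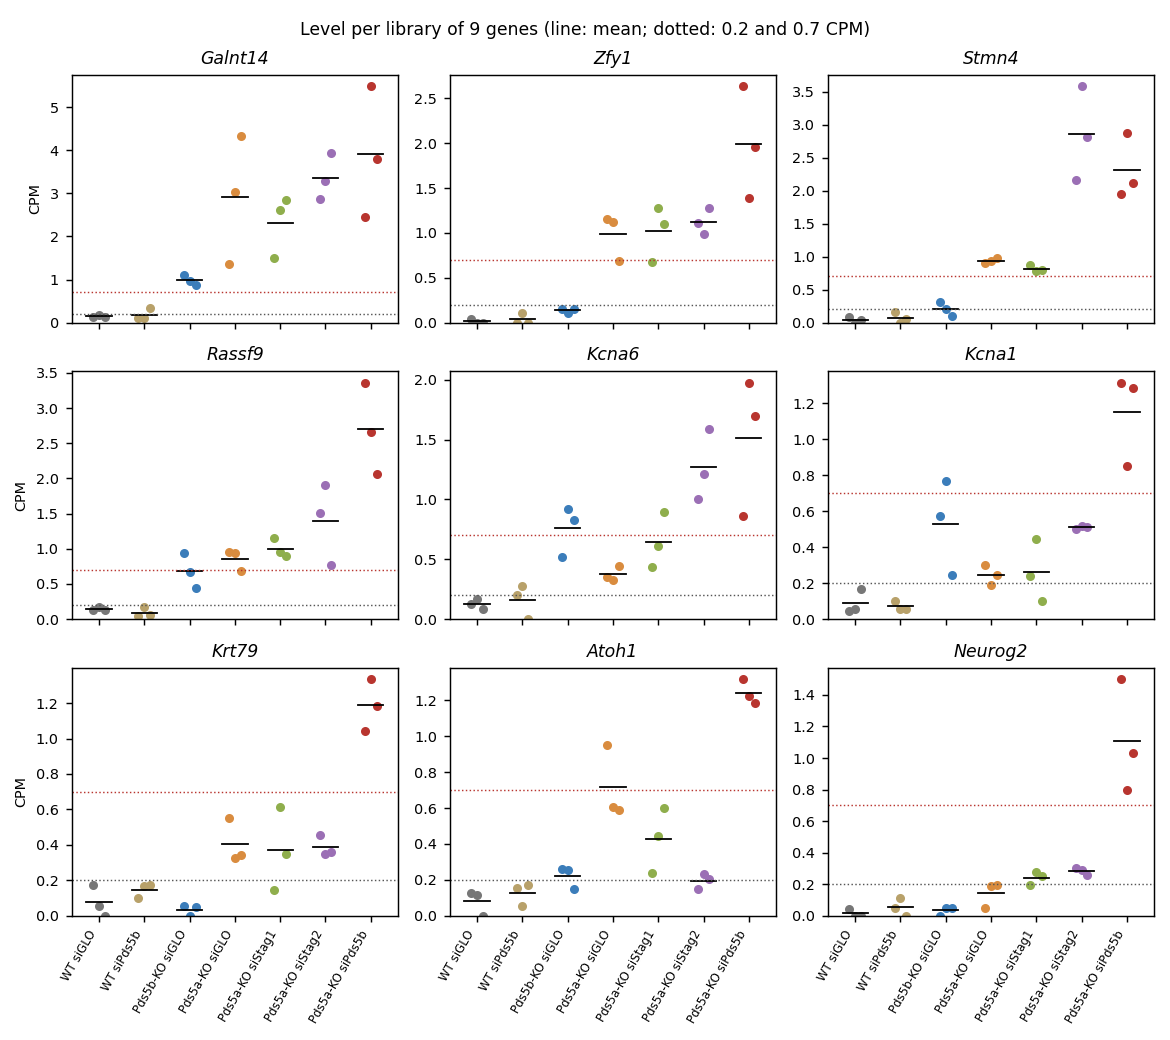
CPM of 9 of the genes in each of the 21 libraries by condition, with lines at the thresholds of 0.2 and 0.7 CPM. Stmn4 and Zfy1 were higher in all Pds5a-KO libraries than in WT and Pds5b-KO libraries, while Neurog2 passed 0.7 CPM in Pds5a-KO siPds5b only.

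The male germ line genes summed to 0.311 ± 0.131 CPM in WT siGLO, 1.05 ± 0.246 in WT siPds5b and 1.78 ± 0.590 in Pds5b-KO siGLO. Their sum was 2.32 ± 0.157 CPM in Pds5a-KO siGLO and 2.33 ± 0.412 in Pds5a-KO siStag1. It was 2.99 ± 0.621 CPM in Pds5a-KO siStag2 and 6.40 ± 0.777 in Pds5a-KO siPds5b. Zfy1 was at 0, 0.112 and 0 CPM in WT siPds5b, 0.156, 0.102 and 0.147 in Pds5b-KO siGLO, 1.15, 1.12 and 0.689 in Pds5a-KO siGLO, 0.673, 1.28 and 1.10 in Pds5a-KO siStag1, 1.11, 0.982 and 1.28 in Pds5a-KO siStag2 and 2.63, 1.39 and 1.96 in Pds5a-KO siPds5b. All 12 Pds5a-KO libraries were above the 9 others. Pdha2, the testis form of a pyruvate dehydrogenase subunit, showed another order, with 0.713, 0.449 and 0.229 CPM in WT siPds5b, 0.469, 0.256 and 0.489 in Pds5b-KO siGLO, 0.09995, 0.140 and 0.197 in Pds5a-KO siGLO and 0.863, 0.747 and 1.08 in Pds5a-KO siPds5b. Its log2 difference between Pds5a-KO siGLO and WT siPds5b was negative, -1.65, and did not pass the test (edgeR adjusted p = 0.0753). Pdha2 entered that test only through the Pds5a-KO siPds5b libraries that chose it. The others were Tuba3b (an alpha-tubulin of testis), Ptpn20 (a tyrosine phosphatase) and 1700022P22Rik (now named Spata45).

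Galnt14 encodes a glycosylation enzyme but was placed by hand in the growth and patterning group. It was counted well above the threshold in all Pds5a-KO conditions. It was at 0.129, 0.171 and 0.125 CPM in WT siGLO, 0.102, 0.112 and 0.344 in WT siPds5b, 1.09, 0.973 and 0.880 in Pds5b-KO siGLO and 1.35, 3.04 and 4.33 in Pds5a-KO siGLO. It was at 1.49, 2.62 and 2.84 CPM in Pds5a-KO siStag1, 2.87, 3.29 and 3.94 in Pds5a-KO siStag2 and 2.45, 5.49 and 3.81 in Pds5a-KO siPds5b. The siStag1 libraries were below the siStag2 libraries, all other pairs of Pds5a-KO conditions overlapped, and the WT libraries were below all knockout libraries. Fat4, a giant cadherin of planar polarity, did not follow this pattern. It was at 0.153, 0.280 and 0.115 CPM in WT siPds5b, 0, 0.187 and 0.394 in Pds5a-KO siGLO and 1.36, 1.60 and 1.49 in Pds5a-KO siPds5b. Pdgfd, a growth factor of the PDGF family, was at 0.09995, 0.515 and 0.590 CPM in Pds5a-KO siGLO, 0.755, 1.21 and 0.921 in Pds5a-KO siStag2 and 1.498, 1.17 and 1.70 in Pds5a-KO siPds5b.

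Of the other enzymes and regulators, Pkib encodes an inhibitor of protein kinase A. It was at 0.306, 0.392 and 0.631 CPM in WT siPds5b, 0.730, 0.973 and 0.783 in Pds5b-KO siGLO, 0.800, 0.843 and 1.08 in Pds5a-KO siGLO, 0.604, 0.289 and 0.869 in Pds5a-KO siStag2 and 1.54, 1.01 and 1.75 in Pds5a-KO siPds5b. It was on in both knockouts but overlapped WT siPds5b in the siStag2 libraries. Cyp21a1, the steroid 21-hydroxylase, was at 0, 0.0561 and 0 CPM in WT siPds5b, 0.250, 0.375 and 0.394 in Pds5a-KO siGLO, 0.856, 0.751 and 0.716 in Pds5a-KO siStag2 and 0.772, 1.12 and 2.01 in Pds5a-KO siPds5b. Sqrdl (sulfide quinone oxidoreductase) and Dnahc5 (an axonemal dynein heavy chain) were the others. Of the genes with no named product, the noncoding E030044B06Rik was at 0.153, 0.0561 and 0.172 CPM in WT siPds5b, 0.208, 0.154 and 0.0978 in Pds5b-KO siGLO, 0.850, 0.889 and 0.590 in Pds5a-KO siGLO and 0.772, 0.747 and 1.49 in Pds5a-KO siPds5b. It was as high in Pds5a-KO siGLO as in some Pds5a-KO siPds5b libraries.

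Differences were tested among the 5 conditions that the rule did not use, with edgeR's quasi-likelihood test over 14963 genes and a Benjamini-Hochberg adjusted p under 0.01. The fit used all 21 libraries, so the filter on low counts and the estimate of spread drew on the libraries of the rule. All 36 genes passed the filter, but only 26 did when the 6 libraries of the rule were left out. The rest thus entered through Pds5a-KO siPds5b. Without those 6 libraries, 8, 4, 4, 0, 1 and 0 of the 26 were called in the contrasts, in the order given below, all higher. Contrasts that share a condition are given side by side and are not independent.

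Pds5a-KO siGLO was compared with WT siPds5b, the wild type outside the rule, from which it also differs in the siRNA. Of the 36 genes 10 rose and 0 fell, or 27.8% higher beside 9.02% of all tested genes higher and 7.47% lower, and the median log2 difference was 1.73 beside -0.00 over all genes. At an unadjusted p under 0.05, 21 were higher and 1 lower, beside 5666 of all 14963 tested genes in either direction. DESeq2 called 7 higher and 0 lower. The genes were chosen partly in the same clone and for low WT siGLO values, which favours this direction. Without the libraries of the rule, 26 genes were tested, 8 of them called higher and 0 lower. Galnt14 rose by 3.94 ± 0.50 on the log2 scale (SE, edgeR adjusted p = 2.92e-06), Stmn4 by 3.58 ± 0.57 (5.0e-05), Rassf9 by 3.15 ± 0.55 (0.000149) and E030044B06Rik by 2.55 ± 0.54 (0.00102). Atoh1 rose by 2.43 ± 0.56 (edgeR adjusted p = 0.00200), 2810047C21Rik1 by 2.34 ± 0.60 (0.00476) and Nol4 by 2.02 ± 0.56 (0.00849). Zfy1, Isx and Cyp21a1 also passed (edgeR adjusted p = 2.6e-05, 0.00289 and 0.00751), but had 1 or 2 counts over the WT siPds5b libraries. Zfy1 had 61 against 2 counts, a ratio of 27.1 (95% exact counting interval 7.20 to 229), Isx 22 against 1 (19.6, 3.16 to 808) and Cyp21a1 21 against 1 (18.7, 3.01 to 773). Leaving out WT siPds5b replicate 1 or replicate 2 left 6 calls. Galnt14, Stmn4, Rassf9, Zfy1 and E030044B06Rik passed whichever library was left out.

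Pds5b-KO siGLO against WT siPds5b gave 5 higher and 0 lower, 13.9% beside 9.38% of all tested genes higher and 9.46% lower, with a median of 1.07 beside 0.00. At an unadjusted p under 0.05, 14 were higher and 1 lower, beside 6346 of all 14963 tested genes in either direction. DESeq2 called 5 higher and 0 lower. Rassf9 rose by 2.81 ± 0.58 on the log2 scale (SE, edgeR adjusted p = 0.00073), Kcna1 by 2.74 ± 0.67 (0.00317), Col25a1 by 2.51 ± 0.71 (0.00959), Galnt14 by 2.38 ± 0.57 (0.00276) and Kcna6 by 2.16 ± 0.57 (0.00567). The rule required low WT siGLO values, which favours this direction. The median gene had a mean of 0.148 CPM in WT siPds5b, which left little room for a fall. Only 2 or 3 calls were left without any given library, and Rassf9 was the gene that passed each time. Krt79 and Gm9112 had negative differences, -1.93 and -2.29, that did not pass (edgeR adjusted p = 0.147 and 0.0628). Both entered the test only through the Pds5a-KO siPds5b libraries that chose them. Without the libraries of the rule, 26 genes were tested, 4 of them called higher and 0 lower.

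The knockouts themselves were compared with the same control siRNA. The genes were chosen partly in the Pds5a-KO clone, which favours higher values in Pds5a-KO siGLO. In Pds5a-KO siGLO against Pds5b-KO siGLO, 5 genes were higher and 0 lower, 13.9% beside 9.74% of all tested genes higher and 9.46% lower, with a median of 0.35 beside 0.02. At an unadjusted p under 0.05, 12 were higher and 3 lower, beside 6420 of all 14963 tested genes in either direction. DESeq2 called 5 higher and 0 lower. Zfy1 was higher by 2.82 ± 0.53 on the log2 scale (SE, edgeR adjusted p = 0.000300), E030044B06Rik by 2.31 ± 0.51 (0.00145), Stmn4 by 2.18 ± 0.46 (0.000965) and Galnt14 by 1.56 ± 0.37 (0.00256). Krt79 passed (edgeR adjusted p = 0.00314) with 25 against 2 counts, a ratio of 11.99 (95% exact counting interval 2.99 to 104). It entered the test only through the Pds5a-KO siPds5b libraries that chose it, and without the libraries of the rule it was not tested and 4 of 26 genes were called. Kcna6 and Kcna1 had log2 differences of -1.004 and -1.08 that did not pass (edgeR adjusted p = 0.112 for each). Without Pds5b-KO siGLO replicate 2 or replicate 3, 3 calls were left, and Zfy1 and Stmn4 passed whichever library was left out.

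The effect of depleting a STAG subunit was measured in Pds5a-KO cells. With siStag1 against siGLO, 0 were called in either direction, beside 0.0134% of all genes higher and 0.0802% lower. This test was unpaired. A fit with the replicate number as a block again called 0 of the 36. Over all genes it called 18 higher and 30 lower, against 2 and 12 without the block. At an unadjusted p under 0.05, 1 was higher, beside 1598 of all 14963 tested genes in either direction. DESeq2 also called 0 but gave an adjusted p for 1 of the 36 only. With siStag2 against siGLO, Stmn4 alone rose, by 1.58 ± 0.33 on the log2 scale (SE, edgeR adjusted p = 0.00538), beside 0.969% of all genes higher and 1.27% lower, and 28 of 36 differences were positive with a median of 0.65 beside 0.01. At an unadjusted p under 0.05, 7 were higher and 1 lower, beside 3783 of all 14963 tested genes in either direction. Without the libraries of the rule, 20 of 26 tested differences were positive. With the replicate number as a block, Kcna6 passed as well, higher by 1.74 (edgeR adjusted p = 0.00971, and 0.0203 without the block). The check of pairing passed for this contrast, but the block was fitted over all 21 libraries, where it did not pass throughout. Calls over all genes were 363 higher and 314 lower with the block, and 145 and 190 without it. In siStag2 against siStag1, Stmn4 was higher by 1.78 ± 0.34 (SE, edgeR adjusted p = 0.00776), the only call, beside 0.167% of all genes higher and 0.227% lower. At an unadjusted p under 0.05, 4 were higher and 1 lower, beside 2971 of all 14963 tested genes in either direction. Both Stmn4 calls missed the threshold whichever library was left out, with an edgeR adjusted p of 0.0109 to 0.0269 against siGLO and 0.0174 to 0.0410 against siStag1.

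**Figure D4:**
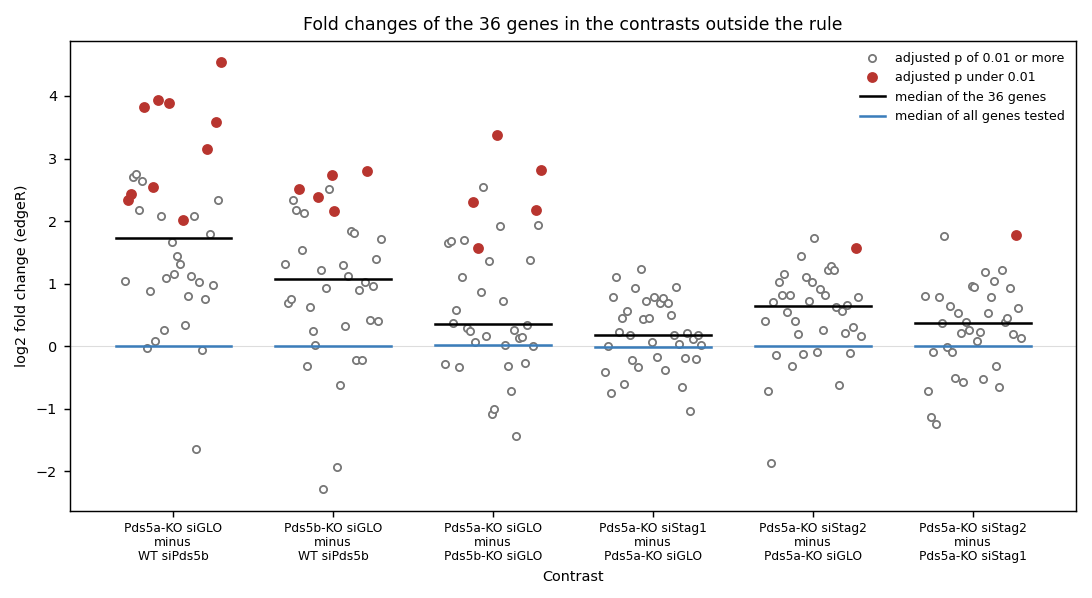
Log2 difference of each of the 36 genes in the 6 tested contrasts (points; red for an adjusted p under 0.01), with the median of the 36 in black and of all 14963 tested genes in blue. Called genes were higher in each contrast that had any, 10 in Pds5a-KO siGLO against WT siPds5b and 0 in siStag1 against siGLO.

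Wider lists of lineage genes were set beside the 36, which held Atoh1 and Neurog2 of the 89 neural transcription factors, Stmn4 and Kcna1 of 102 counted neuron function genes, Dsc3 of 25 epidermis and keratin genes and Pdgfd and Ntf3 of 111 developmental ligands and inhibitors. They held 0 of 63 counted germline and meiosis genes and 0 of those on the other 9 lists. Many other listed genes were low in WT siGLO, 29 neural transcription factors, 39 neuron function genes and 14 germline genes among them. In Pds5a-KO siGLO against WT siPds5b, where 9.02% of all tested genes rose and 7.47% fell, the lists were counted likewise. Of 59 tested neural transcription factors 8 rose and 5 fell (median log2 difference 0.40), and of 57 neuron function genes 10 rose and 7 fell (0.10). In Pds5b-KO siGLO against WT siPds5b, 15 neural transcription factors rose and 0 fell (0.73), and 10 neuron function genes rose and 4 fell (0.16). Over all tested genes 9.38% rose and 9.46% fell there. Between the knockouts, 2 neural transcription factors were higher in Pds5a-KO siGLO and 9 lower, a median of -0.42, beside 9.74% of all tested genes higher and 9.46% lower. Of 82 developmental ligands and inhibitors, 11 rose and 11 fell in Pds5a-KO siGLO against WT siPds5b, and of 14 epidermis and keratin genes 2 rose and 1 fell. Neural transcription factors at 0.7 CPM or more in every library numbered 23 in WT siGLO and in WT siPds5b, and 28 in Pds5b-KO siGLO. They numbered 24 in Pds5a-KO siGLO and in Pds5a-KO siStag1, 28 in Pds5a-KO siStag2 and 35 in Pds5a-KO siPds5b. Over all counted symbols the share was 55.5% in WT siGLO and 57.0% in Pds5a-KO siPds5b. Neuron function genes at that level numbered 38 and 48 in those conditions. Their summed level went the other way, 878 to 896 CPM in WT siGLO and 686 to 716 in Pds5a-KO siPds5b. Among the markers of other cells, 8 of 12 tested trophoblast genes rose in Pds5a-KO siGLO against WT siPds5b. The two-cell-like list fell there in 11 of 13 genes, and its sum was 6.51 to 8.45 CPM in Pds5a-KO siGLO but 34.1 to 58.5 in Pds5a-KO siPds5b and 40.02 to 55.7 in WT siGLO, an order unlike that of the 36 genes.

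RefSeq annotation of GRCm38.p6 matched 35 of the 36, and Clca3 was left without a position because that symbol was ambiguous. Protein-coding genes made up 32, with 2 long noncoding RNAs and 1 pseudogene. Chromosome 6 held 5 and chromosome 3 held 4, chromosomes 4 and 11 held 0, and Gm9112 and Zfy1 lay on X and Y. A cluster of 3 genes stood on chromosome 6: Ntf3 at chr6:126101412-126166772, Kcna1 at chr6:126636463-126645801 and Kcna6 at chr6:126708328-126740834, all on the minus strand and within 639 kb. Between Ntf3 and Kcna1 lies the related channel gene Kcna5, which had a mean of 0.103 CPM in WT siGLO, 0 in Pds5a-KO siGLO and 0.0783 in Pds5a-KO siPds5b. Within 500 kb on either side, 17 genes were counted and 6 were low in WT siGLO, 3 of them these genes. The gene nearest to a gene of the 36 was on in each WT siGLO library for 15 of 35 (42.9%), beside 32.8% for all genes low in WT siGLO and 58.5% for all counted genes.

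Read sharing limits some values. Exon bases were shared with another gene on the opposite strand for 7 of the 36, and whether counting used strand is not given in the sources used here. Only Pax1 (with AI646519) and Nrn1 (with Fars2) shared them with a counted gene. A match of at least 150 bases at 97% identity to another gene existed for 5, namely Kcna6, Fat4, Cyp21a1, 2810047C21Rik1 and Nrn1. For Kcna6, Fat4 and Nrn1 the matched genes were the overlapping genes on the opposite strand, so these matches are not separate copies. Only Cyp21a1 and 2810047C21Rik1 matched genes that do not overlap them, and those were not counted.

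Promoter windows of 300 bases, 250 before and 50 after an annotated start, were present in the RefSeq table for 26 of the 36 genes. Such a start can lie inside the gene. For a gene with several windows, the CpG ratio and GC content were medians over them. The ratio of observed to expected CpG had a median of 0.477 in the 26, beside 0.185 in 5369 genes low in WT siGLO and 0.573 in all 17692 counted genes with a window. A ratio of 0.6 or more was found for 9 of 26 (34.6%), beside 7.67% and 48.0%. These 26 were thus richer in CpG at the start than the low genes as a whole and poorer than all genes, as a description without a test. Galnt14 and Atoh1, with ratios of 0.724 and 0.840, stood at the upper end, and Krt79 and Isx, with 0.107 and 0.0776, at the lower.

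**Figure D5:**
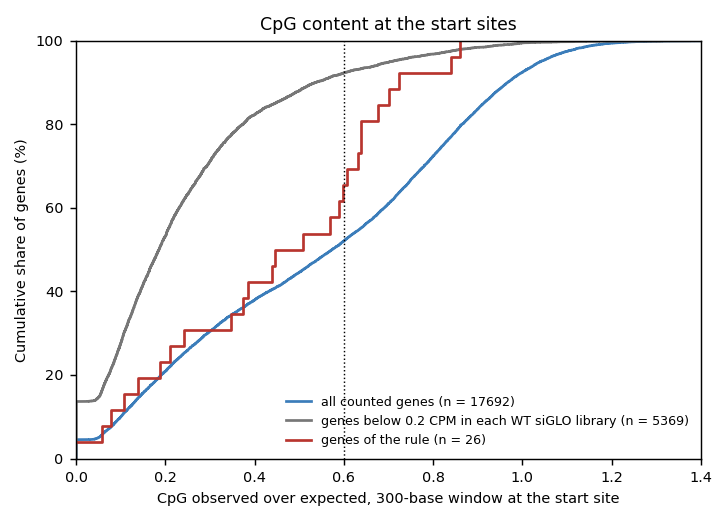
Cumulative share of genes against the observed to expected CpG ratio of the 300-base promoter window, for the 26 genes with a window, genes low in WT siGLO and all counted genes. The curve of the 26 genes runs between the others, with medians of 0.477, 0.185 and 0.573.

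Short motifs were searched on both strands of the windows. A motif counted as present if any window of the gene held it. The 26 genes had 33 windows, the 5369 low genes 5801 and all 17692 genes 21378, so windows per gene were not equal. GGGCGG, the core of the GC box, was present in 14 of 26 (53.8%), beside 13.04% of genes low in WT siGLO and 49.9% of all genes. TATAAA was present in 2 (7.69%), beside 26.1% and 14.4%, and CCAAT in 11 (42.3%), beside 41.6% and 42.4%. GCGGGAA, an E2F-type motif, was present in 4 (15.4%), beside 1.29% and 6.94%. The E-boxes CACGTG and CAGCTG were present in 1 (3.85%, beside 4.36% and 9.18%) and 3 (11.5%, beside 16.7% and 18.03%). A match is one of letters only. The median GC content of the windows was 56.7% in the 26, 46.0% in the low genes and 56.7% in all genes.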

How the data were processed

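The authors extracted total RNA, made poly-A libraries, sequenced them as 150-bp paired ends and aligned reads to mm10 with STAR, and deposited raw counts per gene symbol for 21 libraries, 3 in each of 7 conditions. The counting tool, annotation and strand setting are not given in the sources used here. No column of per-sample values was left unused. The members, lists and function groups were chosen with earlier results of these data known.

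CPM was each count over its library total. Tests used edgeR 4.0.16 in R 4.3.3 (TMM, filterByExpr, robust quasi-likelihood F test, all 21 libraries, group means), with Benjamini-Hochberg adjustment over 14963 genes and a threshold of 0.01. The standard error is the log2 fold change over the square root of F. DESeq2 1.42.0 was an alternative. The script was tested on simulated data. Ratios of summed counts have 95% exact intervals, which cover counting error only, as do floors of 3 counts. With totals of 17311090 to 23989198, low genes rest on few reads. Depth, replicate differences and ribosomal share were checked, and all replicates differed beyond sampling noise.

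Genes were named by a fixed rule: the 15 highest in Pds5a-KO siPds5b, the 5 highest by lowest library in each other condition, up to 5 called in each direction per contrast, the 3 nearest each threshold, list members, and the targeted genes. Others were named after their values were seen.

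Same-numbered libraries deviated together (r over 0.1 in all 3 pairs, over 11735 genes) for siStag1 against siGLO (0.64, 0.17 and 0.55). The same held for siStag2 against siGLO (0.14, 0.26 and 0.23). No label says what a number shares. The main tests were unpaired, and the replicate number entered only as a block in an alternative fit. Promoters came from the RefSeq table of GRCm38.p6, the patch release of mm10, and copies from BLAST 2.17.0. Alternatives left out each library, and changed filter, scaling, tool, samples, thresholds and block.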

Additional observations from a re-analysis of the deposited data

Results flagged for a closer look

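Each of these results was picked out because the same gene differed between conditions in a direct test, and no cause was tested. In Pds5a-KO siGLO against Pds5b-KO siGLO, the log2 difference was 1.56 for Galnt14, 2.18 for Stmn4, 2.82 for Zfy1, 3.37 for Krt79 and 2.31 for E030044B06Rik. All were higher in Pds5a-KO siGLO, from the clone in which the genes were partly chosen. The Krt79 value rests on 2 counts in Pds5b-KO siGLO, depends on the prior count of the fit, and was tested only because the Pds5a-KO siPds5b libraries, which chose the gene, lifted it over the filter on low counts. In Pds5a-KO siStag2 against Pds5a-KO siStag1, the log2 difference was 1.78 for Stmn4.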

How the results depend on the processing

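No difference of a called gene changed direction under an alternative, but differences of other genes did: in Pds5a-KO siGLO against Pds5b-KO siGLO, 28 of 36 were positive, 26 with DESeq2's scaling in edgeR and 21 without Pds5a-KO siGLO replicate 3, and in siStag2 against siGLO 28, and 26 without Pds5a-KO siGLO replicate 2. Of 150 alternative values of counts, 106 were within 1.5 times of the main value, and of 364 values for called genes 299 were still called and 65 were not. The cause was not tested except where stated. In fits to only the 2 conditions compared, fewer genes passed the filter: 6 were called in Pds5a-KO siGLO against WT siPds5b (8 tested), 1 in Pds5b-KO siGLO against WT siPds5b (4 tested) and 0 in siStag2 against siGLO (21 tested). At an adjusted p under 0.05 the calls were 16 in Pds5a-KO siGLO against WT siPds5b, 8 in Pds5a-KO siGLO against Pds5b-KO siGLO and 3 in siStag2 against siGLO, 1 of them lower. With the 15 libraries outside the rule, siStag2 against siStag1 had 0 calls (26 tested). With the replicate block, siStag2 against siGLO had 2 calls, and the count of calls in the 5 other contrasts was 10, 5, 5, 0 and 1, as without the block. Same-numbered libraries correlated above 0.1 in 2 of 3 pairs in the 3 contrasts without a STAG depletion and in 1 of 3 in siStag2 against siStag1.

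Leaving out each library gave 6 to 8 calls in Pds5a-KO siGLO against WT siPds5b, 2 to 3 in Pds5b-KO siGLO against WT siPds5b, 3 to 4 between the knockouts and 0 to 0 in the 3 STAG contrasts. The rule then gave 42 to 51 genes. Genes at 0.7 CPM or more numbered 3 to 6 in Pds5a-KO siGLO (6 without replicate 3), 2 to 4 in Pds5b-KO siGLO (4 without replicate 1), 6 to 7 in Pds5a-KO siStag1 and 9 to 11 in Pds5a-KO siStag2. Thresholds of 0.1 and 1 CPM gave 3 genes by the rule, and 0.3 and 0.5 CPM gave 132. Requiring all 6 WT libraries below 0.2 CPM, chosen after seeing the data, gave 19, and leaving out Rn45s, also chosen then, gave 36. At thresholds of 0.5 and 1 CPM, the genes on were 8 and 1 in Pds5a-KO siGLO, 4 and 0 in Pds5b-KO siGLO, 10 and 1 in Pds5a-KO siStag1 and 14 and 3 in Pds5a-KO siStag2. Below 0.1 CPM in each WT siPds5b library were 4. DESeq2 called 7, 5, 5, 0, 1 and 1 in the 6 contrasts, taken in the order described above, and gave no adjusted p for 0, 1, 5, 35, 34 and 33 of the 36. Depth limits every value here, since 1 count was 0.0417 to 0.0578 CPM.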

Other observations

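The 6 genes with the opposite pattern, at 0.7 CPM or more in each WT siGLO library and below 0.2 in each Pds5a-KO siPds5b library, were Abcb5, Cyp4f15, D630039A03Rik, Gpr37, Peg13 and Rac2. Gpr37, a receptor of glia and neurons, had a mean of 4.53 CPM in WT siGLO, 2.36 in WT siPds5b, 0.04998 in Pds5b-KO siGLO, 0.0328 in Pds5a-KO siGLO and 0.0824 in Pds5a-KO siPds5b. Peg13, an imprinted noncoding RNA, had 0.993 CPM in WT siGLO, 1.56 in WT siPds5b, 4.25 in Pds5b-KO siGLO, 0.0489 in Pds5a-KO siGLO and 0.116 in Pds5a-KO siPds5b. Gpr37 was thus low in both knockouts, whereas Peg13 was high in the Pds5b-KO clone and low in the Pds5a-KO clone. The WT siGLO and Pds5a-KO siPds5b values chose these genes.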
